A study of Sus scrofa with 67 samples.

Results

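CYP26A1 (ENSSSCG00000010475) and a gene without a symbol (ENSSSCG00000021692) were followed through the endometrium, ovary and oviduct of cycling gilts, which are young female pigs. They are 2 of the 25322 Ensembl genes in the table of read counts, and they were chosen by the fold change from day 0 to day 9 of the oestrous cycle, which was largest for this pair in the endometrium. The fitted log2 fold change that chose them was 12.91 for ENSSSCG00000021692 and 12.70 for CYP26A1, and the first gene outside the choice, RPRML, had 11.73. For these 2 genes the difference between those days is therefore a description, with no test. So is every other comparison with day 0 in the endometrium. The gilts were Landrace and Yorkshire crossbreds, 6 to 8 months of age, with normal cycles and no treatment. The endometrium was separated from the muscle layer at mid-horn of the uterus, the oviduct sample was the ampulla, and the whole ovary of one side was taken. Poly-A RNA was sequenced as paired-end reads on 7 days, every 3 days from day 0, the start of the cycle, to day 18. Each tissue had 22 libraries, with 3 per day except for 4 endometrium libraries on day 15, 2 ovary libraries on day 3, 2 oviduct libraries on day 6, and 4 libraries each of ovary and oviduct on days 12 and 15. Libraries are named by their number within a tissue and day in the table. The study's methods give 3 gilts per day, so whether groups of 4 libraries came from 4 gilts is not known, and p-values measure only the spread between these libraries.

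CYP26A1 is a cytochrome P450 that hydroxylates retinoic acid, the active form of vitamin A, and thereby inactivates it. Cells take up retinol, oxidise it to retinaldehyde and then to retinoic acid, which binds nuclear receptors of the RAR and RXR families. CYP26 enzymes limit how much of it reaches those receptors, and CYP26A1 is itself a known target gene of retinoic acid. The endometrium lines the uterus, and through the luteal phase of the cycle, when the corpora lutea secrete progesterone, its glands and surface epithelium change to a secretory state. No symbol was paired with ENSSSCG00000021692, and what it encodes is not given in the sources used here.

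Libraries held 8962103 to 13442083 counts. The floor of detection was set at 3 counts, or 0.223 to 0.335 CPM, the unit in which counts are divided by the size of their library. Intervals and floors cover counting error only and leave out the spread between libraries. Reads without molecular identifiers are not independent molecules, so even the counting error may be larger than given. Other levels are CPM after TMM normalization, a scaling for library size and composition, and no length was available, so the levels of different genes are not compared with each other. Epithelial markers were present in every endometrium library, with EPCAM between 344 and 1103 CPM and FOXA2 between 51.6 and 196.1 CPM. CYP11A1, a steroidogenic enzyme of the ovary, was between 1.37 and 6.60 CPM in the endometrium and between 153 and 12259 CPM in the ovary. OVGP1, the oviductal glycoprotein, was between 994 and 238908 CPM in the oviduct and between 0.887 and 102 CPM in the endometrium. The markers were not confined to a tissue. In the ovary, EPCAM was between 2.20 and 1069 CPM and OVGP1 between 3.35 and 2122 CPM. In the oviduct, EPCAM was between 346 and 844 CPM and CYP11A1 between 4.67 and 202 CPM. FOXJ1, listed for the oviduct epithelium, was between 830 and 1702 CPM there and between 59.9 and 461 CPM in the endometrium. The endometrium library of day 15 numbered 2 correlated least with the others of its day, and levels, ratios and calls of both genes on day 15 are also given without it.

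CYP26A1 was near the detection limit at the start and the end of the cycle and rose to a mean of 659 CPM in the middle. The 3 endometrium libraries of day 0 had 0, 1 and 2 counts of CYP26A1, and those of day 3 had 4, 3 and 2 counts. On day 6 the libraries had 442, 6149 and 6647 counts, and on day 9 they had 7429, 8412 and 4893 counts. Day 9 was the highest day, and library 1 of day 6 lay below the other libraries of days 6 and 9 and within the range of day 12. The counts on day 12 were 242, 280 and 646, and those on day 15 were 224, 440, 22 and 6. On day 18 they were 4, 3 and 0, which overlapped days 0 and 3.

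In normalized values, CYP26A1 had a mean of 387 ± 297 CPM (SD, n = 3) on day 6 and 659 ± 164 CPM (SD, n = 3) on day 9. The mean was 35.0 ± 21.1 CPM (SD, n = 3) on day 12 and 15.8 ± 18.1 CPM (SD, n = 4) on day 15, or 8.17 ± 12.1 CPM (SD, n = 3) without library 2 of that day. The means of days 0, 3 and 18 were 0.0855, 0.250 and 0.211 CPM, at or under the level of 3 counts. The levels of day 12 and day 15 were 5.31% and 2.39% of that of day 9, and without library 2 the latter was 1.24%. Ordered by level, the days were 9, 6, 12, 15, 3, 18 and 0, and neighbouring days in this order overlapped between libraries except day 15 and day 3. The endometrium of day 9 held 7550 times the CYP26A1 level of day 0 (95% exact counting interval 2583 to 36613, from 20734 counts against 3 counts).

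ENSSSCG00000021692 followed the same course at fewer counts. It had 0 counts in each library of day 0, and 2, 0 and 2 counts in those of day 3. The libraries of day 6 had 57, 883 and 861 counts, and those of day 9 had 959, 1023 and 679 counts. As for CYP26A1, library 1 was the low one on day 6. The counts fell to 28, 43 and 93 on day 12, to 27, 51, 5 and 2 on day 15, and to 1, 0 and 0 on day 18. Its mean level was 52.6 ± 40.6 CPM (SD, n = 3) on day 6 and 84.7 ± 16.6 CPM (SD, n = 3) on day 9, followed by 4.95 ± 3.22 CPM (SD, n = 3) on day 12 and 1.93 ± 2.03 CPM (SD, n = 4) on day 15, which became 1.09 ± 1.37 CPM (SD, n = 3) without library 2. Against a floor of 3 counts per library, day 9 was at least 322-fold higher than day 0. All neighbouring days in the order of its levels, which was that of CYP26A1, overlapped between libraries.

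**Figure D1:**
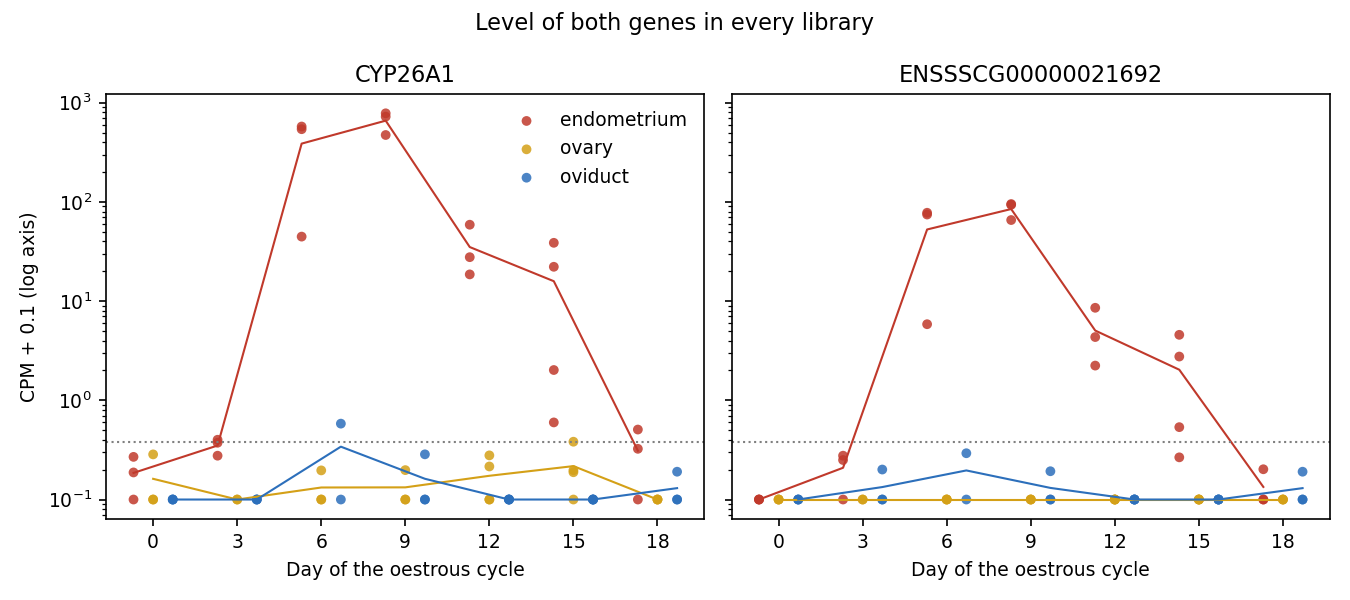
Level of CYP26A1 (left) and ENSSSCG00000021692 (right) in each of the 66 libraries, as CPM + 0.1 on a log axis against the day of the cycle. Points are libraries, shifted sideways by tissue, lines join the means of CPM, and the dotted line is the median level of 3 counts. The endometrium rose between days 3 and 6 to a mean of 659 CPM of CYP26A1 and 84.7 CPM of the other gene on day 9, while the ovary and oviduct stayed near the floor.

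The contrast of day 6 with day 3 compares none of the libraries that chose the genes, although they shared its fit, and asks when the endometrium came to express them. CYP26A1 rose by 10.51 on the log2 scale (SE 1.52, adjusted p = 0.000284, quasi-likelihood test of edgeR, adjusted by Benjamini-Hochberg), the largest rise of the 15341 genes tested. ENSSSCG00000021692 rose by 8.73 (SE 1.29, adjusted p = 0.000435 in the same edgeR test), the rank 4 rise. With days 0 and 9 left out of the fit, both remained called, at 10.51 (adjusted p = 0.00175) and 8.73 (adjusted p = 0.00164, both edgeR). In this comparison 8.86% of all genes tested were called higher. The level of day 6 over day 3 was 1595-fold for CYP26A1 (95% exact counting interval 840 to 3488) and 488-fold for ENSSSCG00000021692 (190 to 1794), from 9 and 4 counts on day 3. Every library of day 6 lay above every library of day 3 for both genes.

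The decline set in between the high days and day 12. From day 6 to day 12, CYP26A1 fell by 3.50 on the log2 scale (SE 1.01, adjusted p = 0.0274, edgeR's quasi-likelihood test), and ENSSSCG00000021692 fell by 3.45 (SE 0.87, adjusted p = 0.0158 in the same test), where 7.33% of all genes were called lower. The libraries of these days overlapped for both genes because of library 1 of day 6, which had 44.6 CPM of CYP26A1 against 58.8 CPM in the highest library of day 12. Without library 1 of day 6 the changes remained called. The call of CYP26A1 was lost without any single one of the other 5 libraries of these days, at adjusted p between 0.0502 and 0.104 in edgeR's test. The call of ENSSSCG00000021692 was lost without library 2 of day 6 (adjusted p = 0.0556, edgeR) or library 1 of day 12 (adjusted p = 0.0688, edgeR). Day 9, which chose the genes, held 19.3 times the CYP26A1 level of day 12 and 17.7 times that of ENSSSCG00000021692, given as a description.

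From day 12 to day 15 neither gene passed the test, with a log2 fold change of -1.14 for CYP26A1 (SE 0.87, adjusted p = 0.412, edgeR) and -1.34 for ENSSSCG00000021692 (SE 0.83, adjusted p = 0.304, edgeR). Of all genes, 6.17% were called in either direction. Day 15 was the most uneven day, with CYP26A1 at 22.1, 38.6, 1.92 and 0.499 CPM and a 77.4-fold range between libraries. The highest of these was library 2, and without it the log2 fold changes were -2.09 and -2.20 (adjusted p = 0.0913 and 0.0822, edgeR). The range between libraries was 12.9-fold on day 6 and 1.65-fold on day 9.

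From day 15 to day 18, CYP26A1 fell by 6.25 on the log2 scale (SE 1.46, adjusted p = 0.0475, edgeR's quasi-likelihood test), in a comparison that called 0.554% of all genes lower. Leaving out single endometrium libraries ended the call for 18 of 22 libraries, among them the fit without library 2 of day 15 (log2 fold change -5.30, adjusted p = 0.0702, edgeR). Across all alternatives the adjusted p ran from 9.15e-05 to 0.359. ENSSSCG00000021692 had a log2 fold change of -5.63 (SE 1.72, adjusted p = 0.115, edgeR) and did not pass, nor did it without library 2 of day 15 (-4.77, adjusted p = 0.211, edgeR). Fitted fold changes against day 18 rest on 7 counts of CYP26A1 and 1 count of the other gene. By counts, the level of day 15 was 80.3 times that of day 18 for CYP26A1 (95% exact counting interval 38.8 to 200.5), and without library 2 of day 15 it was 39.2 times (18.7 to 98.4). The lowest library of day 15 had 6 counts of CYP26A1 and the highest of day 18 had 4, a gap too small to tell apart by counting.

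**Figure D2:**
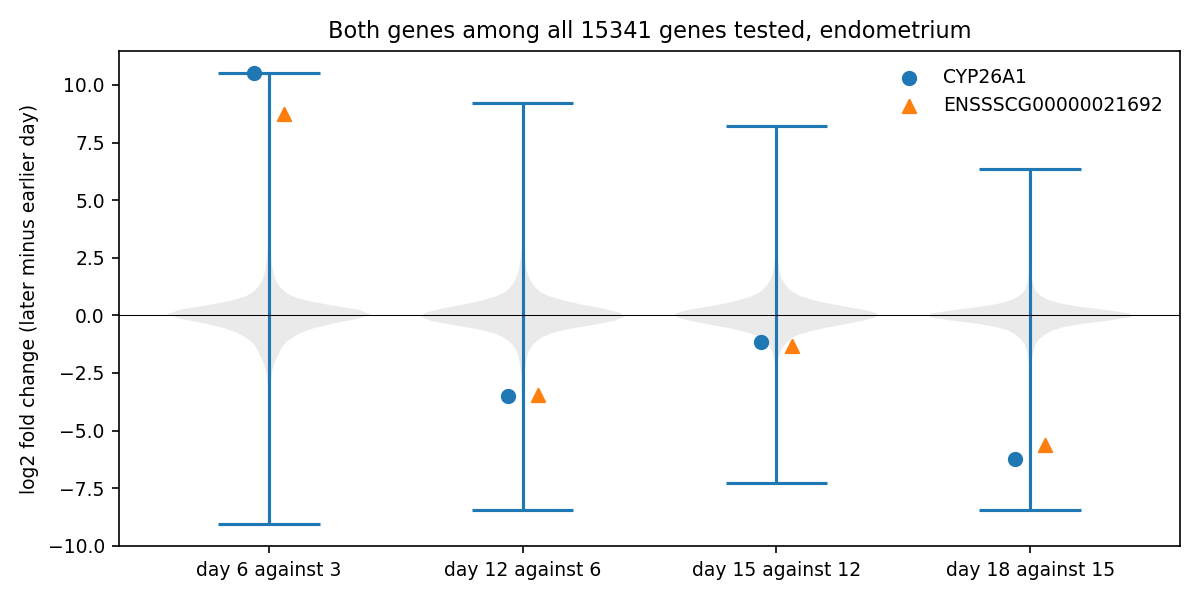
Log2 fold changes of all 15341 genes tested in the endometrium (grey violins, with lines to the lowest and highest gene) between consecutive sampled days that leave out days 0 and 9, with CYP26A1 as circles and ENSSSCG00000021692 as triangles. Both genes were at the upper end from day 3 to day 6, at 10.51 and 8.73, and below 0 in the other comparisons, of which the one from day 12 to day 15 passed the test for neither gene.

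Between libraries of a day, both genes varied more than most. The biological coefficient of variation within days, as edgeR estimates it per gene, was 0.876 for CYP26A1, at the 98.5th percentile of all genes, and 0.786 for ENSSSCG00000021692, at the 97.7th percentile, while the median gene had 0.240. The level in a bulk sample does not tell fewer expressing cells from less RNA per cell.

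Markers of cell types also changed in the endometrium between some of these days. Of the 12 markers of a list of 16 that were in the table, KRT8 and FOXA2 (epithelium) were called higher on day 6 than on day 3, and VIM (stroma), PTPRC and CD68 (immune cells) were called lower, by edgeR's test, where 8.86% of all genes were called higher and 18.9% in either direction. EPCAM, an epithelial surface protein, did not pass (log2 fold change 0.01, adjusted p = 0.983, edgeR), and neither did KRT18 (adjusted p = 0.0925, edgeR) nor the stromal DCN (adjusted p = 0.117, edgeR). The summed level of the 4 epithelial markers was 1616 to 1788 CPM on day 3, 2105 to 4558 CPM on day 6 and 2400 to 2643 CPM on day 9. It was 2102 to 3525 CPM on day 12, 1978 to 2470 CPM on day 15 and 1497 to 2073 CPM on day 18. KRT8 made up most of that sum on day 6, with a mean of 1066 CPM on day 3 and 2616 CPM on day 6, while EPCAM had 444 ± 37.8 CPM on day 3, 450 ± 64.7 CPM on day 6, 357 ± 22.3 CPM on day 9 and 830 ± 240 CPM on day 18 (SD, n = 3 each). The summed level of VIM and DCN was 2277 to 2493 CPM on day 3, 912 to 1595 CPM on day 6 and 1063 to 1488 CPM on day 9. It was 1292 to 1810 CPM on day 12, 1481 to 3659 CPM on day 15 and 2381 to 3857 CPM on day 18. The endothelial marker PECAM1 was at 124 to 213 CPM on day 3 and 75.3 to 92.1 CPM on day 6, and no marker was at 0 in an endometrium library. From day 6 to day 12, when both genes fell, edgeR's test called 0 of the 12 markers. Of all genes, 7.33% were called lower and 6.69% higher there. From day 12 to day 15 the test called EPCAM higher, where 3.90% of all genes were called higher. From day 15 to day 18 it called 0 of the 12, and 1.01% of all genes. The part of marker shifts in the course of both genes was not tested.

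In the ovary, CYP26A1 had 12 counts over all 22 libraries, with at most 3 in a library, and ENSSSCG00000021692 had 0 counts in every library. In the oviduct, CYP26A1 had 8 counts, of which 5 were in library 2 of day 6, 2 in library 3 of day 9 and 1 in library 3 of day 18. ENSSSCG00000021692 had 5 counts in the oviduct, in those same 3 libraries and in library 1 of day 3. The filter on low counts removed both genes in both tissues, and with no filter edgeR passed neither gene on day 6, 9 or 12 against day 0. The adjusted p on those days was 0.853, 0.865 and 0.968 for CYP26A1 in the ovary, 0.378, 0.563 and 1 for CYP26A1 in the oviduct, and 0.515, 0.602 and 1 for ENSSSCG00000021692 in the oviduct (edgeR), while its 0 counts in the ovary gave no test.

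The endometrium was compared with the other tissues on days 6 and 12, which did not choose the genes. The study took the 3 tissues from the gilts of each day, so tissues of a day may share animals, and which libraries do is not known from the labels. On day 6, CYP26A1 was higher than in the ovary by a log2 fold change of 12.96 (SE 1.49, adjusted p = 8.69e-05, edgeR's quasi-likelihood test), where 27.7% of all genes were called higher. Against the oviduct the difference was 10.61 (SE 1.50, adjusted p = 0.000703, edgeR), with 16.7% of genes called higher. It was 14.96 without oviduct library 2, which left only library 3 with 0 counts, and 9.59 without oviduct library 3. These were the only oviduct libraries of that day. ENSSSCG00000021692 was higher by 12.07 against the ovary (SE 1.85, adjusted p = 0.00121, edgeR) and by 8.96 against the oviduct (SE 1.68, adjusted p = 0.0057, edgeR). The last of these missed the threshold without the oviduct library numbered 3 of day 6 (adjusted p = 0.0532, edgeR), which left 1 oviduct library.

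On day 12, when the endometrial level was lower, both genes still passed the test against either tissue. CYP26A1 was higher than in the ovary by 8.56 (SE 0.74, adjusted p = 5.25e-05, edgeR) and than in the oviduct by 11.50 (SE 0.92, adjusted p = 6.64e-05, edgeR). ENSSSCG00000021692 was higher by 8.68 against either tissue, with adjusted p = 0.00263 and 0.0032 (edgeR), where 22.7% and 16.3% of genes were called higher. The fitted values depend on the prior count where a group is at 0. By counts, CYP26A1 on day 12 was 422 times the ovary level (95% exact counting interval 144 to 2051) and at least 124-fold the oviduct level, and ENSSSCG00000021692 was at least 15.1-fold and 17.6-fold above these tissues.

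The counts of both genes stayed in nearly 1 proportion wherever they could be counted. In the 11 endometrium libraries with at least 10 counts of ENSSSCG00000021692, it took between 10.4% and 13.3% of the counts of both genes, while its own count ranged from 27 to 1023. Library 1 of day 6, with few counts of either gene, had a share of 11.4% (95% Wilson interval 8.92 to 14.5), next to 12.6% (11.8 to 13.4) and 11.5% (10.8 to 12.2) in the other libraries of that day. The uneven libraries of day 15 numbered 1 and 2 had shares of 10.8% (7.50 to 15.2) and 10.4% (7.99 to 13.4). The pooled share was 11.6% (11.3 to 12.0) on days 6, 9 and 12 together and 10.9% (8.93 to 13.3) on day 15, or 11.9% (8.63 to 16.2) without library 2 of day 15.

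The spread of these shares was close to counting error. The chi-squared statistic per degree of freedom for 1 constant share was 1.67 over the 11 libraries and 1.03 over the 8 of them that are not of day 9, where counting error alone gives about 1. The same statistic for CYP26A1 with other genes of similar course was 1254 with DCP1A, 450 with MMD2 and 82.8 with GLYATL2. It grows with the number of counts, which differed between these pairs. The count ratio to CYP26A1 over the 11 libraries spanned 1.33-fold for ENSSSCG00000021692, 25.8-fold for DCP1A, 88.7-fold for MMD2 and 16.5-fold for GLYATL2. Log2 ratios of CYP26A1 to ENSSSCG00000021692 were taken after a pseudocount of 1 CPM was added to each level. Their mean was 2.58 ± 0.11 (SD, n = 3) on day 12 and 2.82 ± 0.09 (SD, n = 3) on day 6. The difference was -0.24 (exact permutation test, two-sided, p = 0.1, which 3 against 3 libraries cannot go below). With a pseudocount of 0.1 CPM in place of 1 CPM the difference was -0.06, so its size depended on the value added. With nothing added, the ratios of counts were 8.64, 6.51 and 6.95 on day 12 and 7.75, 6.96 and 7.72 on day 6, which overlapped. Outside these libraries counts were too few to tell a share apart, with 5 counts against 19 on days 0, 3 and 18, 5 against 8 in the oviduct (38.5%, 95% Wilson interval 17.7 to 64.5) and 0 against 12 in the ovary (0 to 24.2). Whether the identifiers share a locus or reads was not tested, since no coordinates of the build of the files were used, and the strand setting of the counting is not given in the sources used here.

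**Figure D3:**
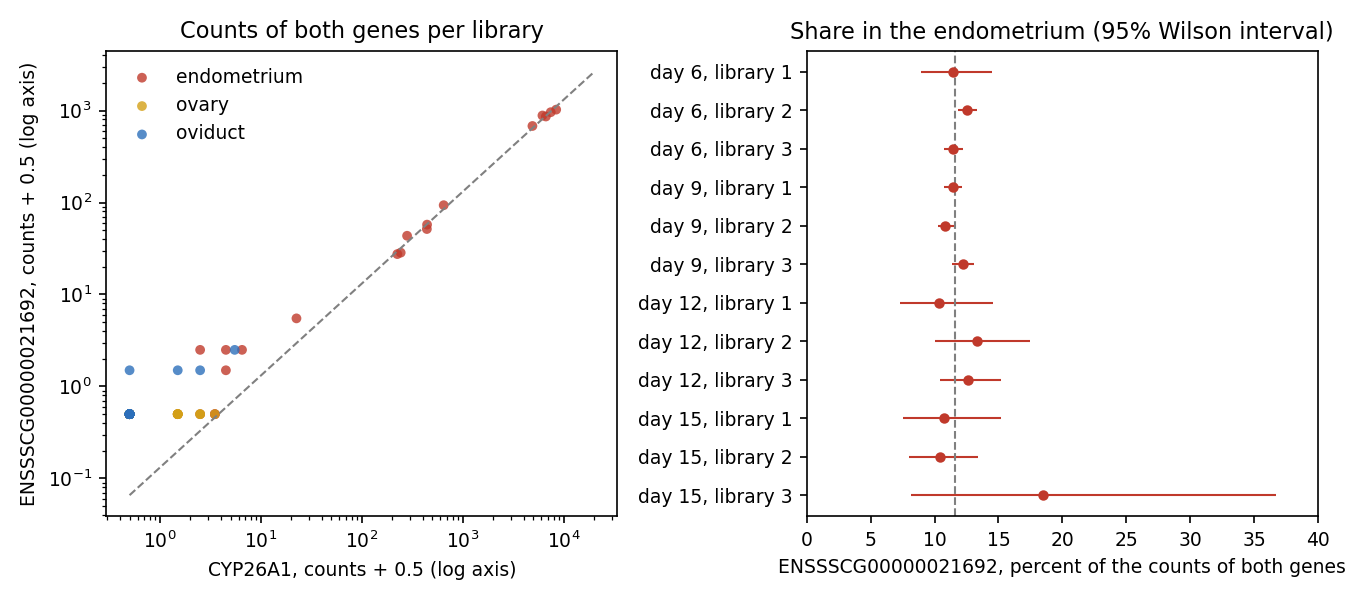
Left, counts + 0.5 of ENSSSCG00000021692 against CYP26A1 in every library on log axes, with a dashed line at the proportion summed over the endometrium. Right, the share of ENSSSCG00000021692 in the counts of both genes with its 95% Wilson interval. It is shown for the endometrium libraries with at least 10 counts of both genes together. The shares of 11 libraries lay between 10.4% and 13.3%, and library 3 of day 15, with 5 counts of ENSSSCG00000021692, had a wide interval.

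Each gene was the other's nearest in pattern. Over the 21 means of tissue and day on the log2(CPM + 1) scale, their Pearson's r was 0.991, the highest of 16934 genes for either, and it was 0.986 over the 66 libraries, again the highest. With Spearman's rho, 0.755, which gives weight to the order of groups near 0, ENSSSCG00000021692 ranked 78 for CYP26A1, and CYP26A1 ranked 270 in the other direction. The points share the days that chose the genes, so these values are a description. Next for CYP26A1 were DCP1A, of the mRNA decapping complex, with an r of 0.984, and MMD2, a membrane protein of the progestin and adipoQ receptor family, with an r of 0.981. Next for ENSSSCG00000021692 were GLYATL2, an enzyme that joins fatty acids to glycine, with an r of 0.972, and DCP1A, with an r of 0.971. The 10 nearest genes had an r of 0.958 or more for CYP26A1 and 0.950 or more for ENSSSCG00000021692.

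These genes differed in their level at the start of the cycle. DCP1A was expressed on every day, at 72.0 ± 8.7 CPM on day 0, 225 ± 85.1 CPM on day 6 and 222 ± 13.7 CPM on day 9 (SD, n = 3 each), and at 64.1 to 75.5 CPM in the ovary. MMD2 had 0.204 CPM on day 0, 21.2 ± 6.3 CPM on day 9 and 14.3 ± 14.3 CPM on day 12 (SD, n = 3 each). GLYATL2 had 0.722 CPM on day 0, 83.7 ± 43.4 CPM on day 9 and 5.38 ± 4.24 CPM on day 12 (SD, n = 3 each). On day 18 the means were 69.2 CPM for DCP1A, 0.496 CPM for MMD2 and 0.985 CPM for GLYATL2. In all, 36 genes had at most 3 counts in each endometrium library of day 0 and at least 10 in each of day 9. Of these, 9 had at most 5 counts in each ovary and oviduct library, 8 of which also had at most 5 in each endometrium library of day 18. CYP26A1 and ENSSSCG00000021692 were the 2 among these 8 with at least 100 counts in each library of day 9. Days 0 and 9 chose both genes, and the ceiling of 5 counts equals the highest CYP26A1 count in the oviduct. That both meet these criteria is therefore a description.

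**Figure D4:**
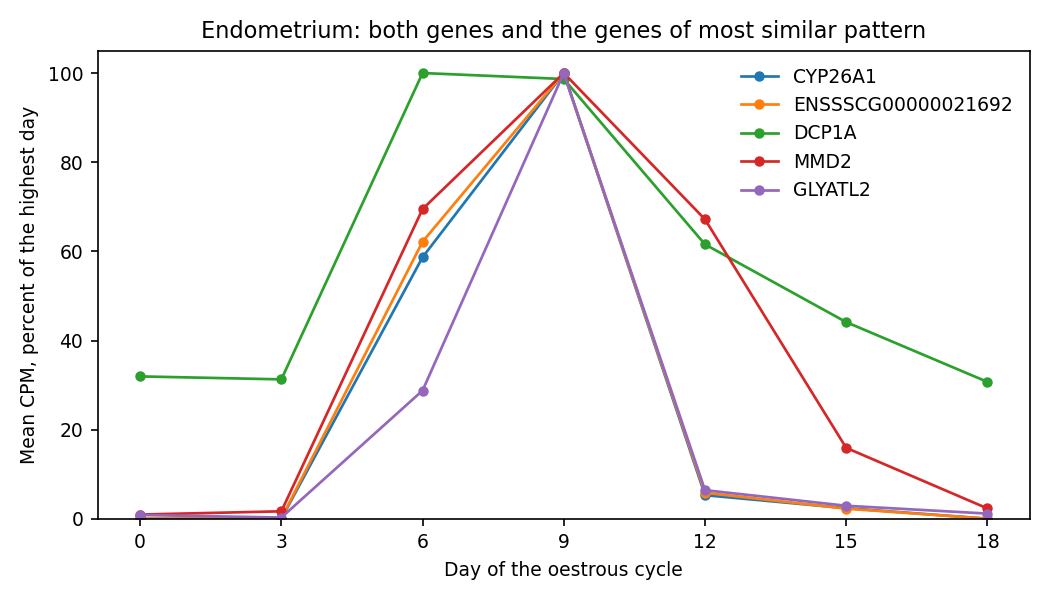
Mean CPM in the endometrium on each day, as a percent of the highest day, for CYP26A1, ENSSSCG00000021692 and the 3 other named genes of most similar pattern. DCP1A had 72.0 CPM on day 0 and 225 CPM on day 6, its highest day. From day 9 to day 12, MMD2 went from 21.2 to 14.3 CPM, with an SD of 14.3 CPM (n = 3) on day 12. Between the same days CYP26A1 went from 659 to 35.0 CPM, ENSSSCG00000021692 from 84.7 to 4.95 CPM and GLYATL2 from 83.7 to 5.38 CPM.

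The other genes of the retinoid pathway were taken from a list of 21, of which 19 were in the table and 15 passed the filter in the endometrium. Among the CYP26 enzymes, CYP26B1 had 15.3 ± 2.7 CPM on day 3 and 12.1 ± 5.3 CPM on day 6 (SD, n = 3 each), with a log2 fold change of -0.34 (SE 0.83, adjusted p = 0.821, edgeR). Its highest mean was 44.5 ± 35.5 CPM (SD, n = 4) on day 15. CYP26C1 failed the filter, with 0 counts on day 0, 0 or 1 count per library on day 6, and 4 to 11 counts in the libraries of day 9. CYP26 enzymes are related in sequence, and whether reads of CYP26A1 were assigned to CYP26C1 was not tested.

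From day 3 to day 6, when CYP26A1 rose, 1 of the 15 genes was called higher and 4 lower, in a comparison that called 18.9% of all genes in either direction. RDH11, which reduces retinaldehyde to retinol, went from 79.5 to 133.6 CPM (log2 fold change 0.74, SE 0.15, adjusted p = 0.00238, edgeR). Those called lower were the cellular retinoic acid binding proteins CRABP1 and CRABP2, the retinaldehyde reductase DHRS3 and the receptor RARA. CRABP2 went from 69.1 ± 17.5 to 11.0 ± 1.9 CPM (SD, n = 3 each), with a log2 fold change of -2.66 (SE 0.56, adjusted p = 0.0029, edgeR). CRABP1 went from 42.0 ± 15.2 to 8.63 ± 6.33 CPM (SD, n = 3 each), with a log2 fold change of -2.29 (SE 0.53, adjusted p = 0.00545, edgeR). DHRS3 fell by 1.54 (adjusted p = 0.00101, edgeR) and RARA by 1.16 on the log2 scale (adjusted p = 0.0139, edgeR). The call of RARA held in 26 of 28 alternatives, and the other 4 calls in all 28.

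Of the enzymes that make retinoic acid, none of the 3 measured passed the test when CYP26A1 rose. From day 3 to day 6, ALDH1A1 had a log2 fold change of -0.88 (adjusted p = 0.209, edgeR), ALDH1A2 of -0.32 (adjusted p = 0.571, edgeR) and ALDH1A3 of 0.27 (adjusted p = 0.785, edgeR). ALDH1A1 had 820 ± 186 CPM on day 0, 267 ± 136 CPM on day 9 and 98.3 ± 39.3 CPM on day 12 (SD, n = 3 each). In the contrast of day 9 with day 0, which chose CYP26A1, its log2 fold change was -1.62 (SE 0.48), that of CRABP1 was -2.33 (SE 0.52), that of RARA was -1.53 (SE 0.31) and that of RDH11 was 0.57 (SE 0.15). These were the 3 genes called lower and the 1 called higher of the 15, where 12.5% of all genes were called lower and 12.0% higher.

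From day 6 to day 12, when both genes fell, ALDH1A1 (-1.92), ALDH1A3 (-2.13) and the receptor RARB (-1.40) were called lower on the log2 scale, with adjusted p of 0.0134, 0.0196 and 0.0159 in edgeR's test. DHRS3 was called higher (1.10, adjusted p = 0.0133, edgeR). Of 28 alternatives, the call of ALDH1A1 held in 27, that of DHRS3 in 25, and those of ALDH1A3 and RARB in 24 each. Losses came without library 3 of day 12 (ALDH1A1, ALDH1A3 and DHRS3), library 1 of day 12 (ALDH1A3, RARB and DHRS3), library 2 of day 12 (RARB), library 1 of day 6 (RARB and DHRS3) or library 2 or 3 of day 6 (ALDH1A3), and with only the days compared (RARB). The calls were 3 lower and 1 higher of the 15 genes, where 7.33% of all genes were called lower and 6.69% higher. From day 12 to day 15, CRABP1 was called higher (1.82, adjusted p = 0.0414, edgeR) and CRABP2 lower (-2.05, adjusted p = 0.0394, edgeR), where 3.90% and 2.27% of all genes were called. The call of CRABP1 held in 11 and that of CRABP2 in 15 of 28 alternatives, and both were lost with no filter, with only the days compared, without days 0 and 9 and with the replicate block. Without library 2 of day 15, edgeR's test called 3 genes higher (CRABP1, CYP26B1 and RBP4) and 1 lower (CRABP2). Over all genes, this comparison called 0 to 4349 with single libraries left out. The number for the fit without library 2 alone is not given here, so its calls have no share of all genes beside them. From day 15 to day 18 edgeR's test called 0 of the 15 genes (1.01% of all genes), with 3 at an unadjusted p under the threshold, and DESeq2 called 2, ALDH1A1 and CRABP2, both higher. Without library 2 of day 15, edgeR's test called CRABP2 higher. Over all genes, this comparison called 0 to 547 with single libraries left out, and the number with DESeq2 is given with the processing below.

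**Figure D5:**
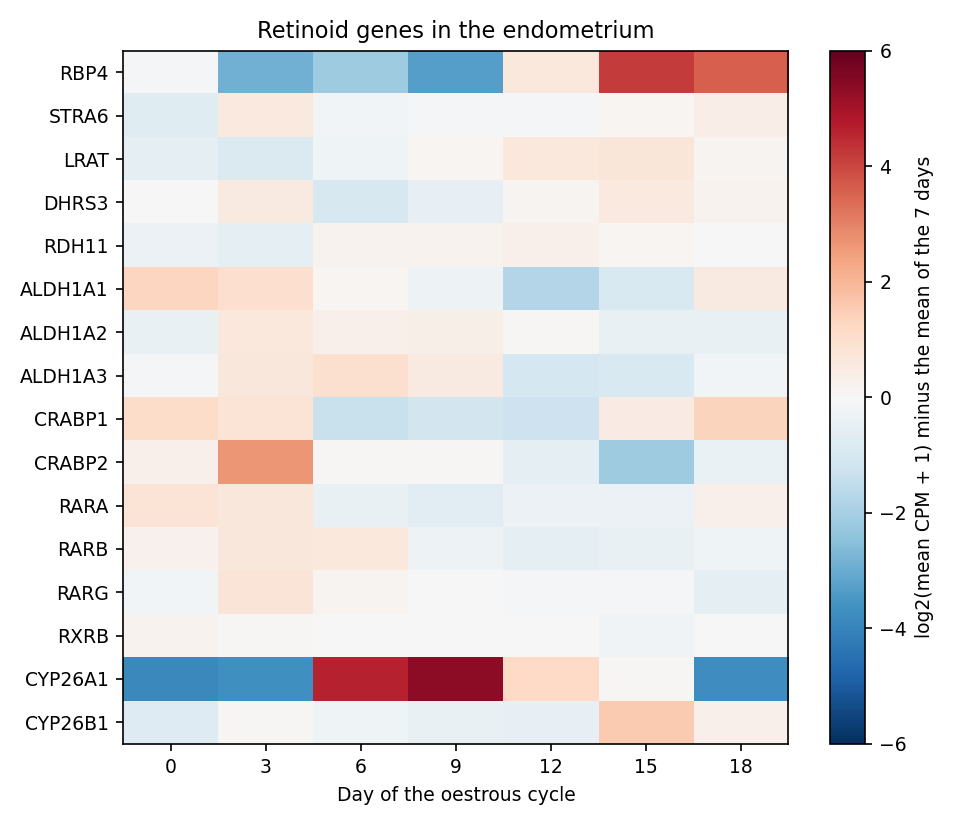
Retinoid genes that passed the filter in the endometrium, by day, coloured by log2(mean CPM + 1) minus the mean of the 7 days of that gene. CYP26A1 had the widest range, with high values on days 6 and 9, while CRABP1 was lowest on day 6 and RARA on day 9, and RBP4 was highest on days 15 and 18.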

How the data were processed

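RNA was sequenced from endometrium, ovary and oviduct libraries of gilts. After trimming 13 bases from read starts and mapping to the pig genome and Ensembl transcripts, the authors deposited raw counts per gene and library, neither normalized nor pooled. The submitters' processing notes name FastQC, featureCounts, Cufflinks, Cuffdiff and edgeR, with no versions. The table holds 66 of the 67 labelled samples, and the other, of day 12 endometrium, is not analysed here. Libraries were assigned to groups by the tissue and day in their column names. Of 25322 identifiers, 11804 were paired with a symbol.

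Counts were tested with edgeR 4.0.16 in R 4.3.3 (TMM, filterByExpr, robust quasi-likelihood fit, Benjamini-Hochberg over all genes tested, threshold 0.05). All days of the endometrium, or all tissues of a day, shared 1 fit. Standard errors are the log2 fold change over the root of the test statistic. Of 74 pairs of libraries of a group, 0 were identical. Alternatives were DESeq2 1.42.0, its size factors, no filter, fewer libraries, a replicate block and leaving out each library. Scripts were tested on simulated data, and other steps used Python 3.11.15 with scipy 1.17.1.

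The named genes were those of the rule and the 3 of most similar pattern for each, by Pearson's r over 21 means. Both genes and the lists of retinoid genes and markers were chosen with earlier results of these data known, and the retinoid list was written once the name CYP26A1 was known. The planned correlation of both genes over days 6, 9 and 12 is not given, because those 9 libraries fell into a low and a high cluster. Part of the retinoid list is not reported here.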

Additional observations from a re-analysis of the deposited data

Results flagged for a closer look

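The endometrium library of day 15 numbered 2 stood far from the other libraries of its day for 2 of the 20 genes examined. Each time the gap to the nearest library took most of the whole range. All 20 genes were examined in this same group of 4 libraries. The criterion flags about 1 in 20 sets by chance, but these genes share their libraries and are not independent. The number flagged can therefore not be set against that rate. RBP4, the retinol carrier, had 115.1 CPM in that library and between 7463 and 8493 CPM in the others. MMD2 had 11.8 CPM in that library and between 0.249 and 1.14 CPM in the others. The same library had the highest level of CYP26A1 on that day, 38.6 CPM, although that gene itself met no criterion there. Why the library differs was not tested.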

How the results depend on the processing

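The rise from day 3 to day 6 and the higher levels in the endometrium than in the ovary on days 6 and 12 and than in the oviduct on day 12 kept their direction and call for both genes in every alternative that gave a value. From day 6 to day 12 the log2 fold change ran from -4.10 to -3.11 for CYP26A1 and from -4.08 to -3.04 for ENSSSCG00000021692 with single libraries left out. CYP26A1 lost its call there without days 0 and 9 (-3.50, adjusted p = 0.0679, edgeR), and ENSSSCG00000021692 with only the days compared (-3.45, adjusted p = 0.0556, edgeR). From day 15 to day 18, CYP26A1 lost its call without the filter (-6.24, adjusted p = 0.0776), with only the days compared (-6.24, adjusted p = 0.359) and without days 0 and 9 (-6.25, adjusted p = 0.131, all edgeR), and ran from -6.99 to -5.30 with single libraries left out, while ENSSSCG00000021692 gained a call with DESeq2 (-6.02, adjusted p = 0.00808) and could not be fitted with only the days compared. Against the oviduct on day 6, ENSSSCG00000021692 ran from 7.98 to 12.08. The causes were not tested. Column numbers were also used as a replicate block. Same-numbered endometrium libraries of different days had correlated deviations down to -0.17, so the numbers do not pair them, and the block changed no call of either gene (from day 6 to day 12, -3.35 and -3.29). The counts of genes called from day 12 to day 15 were 947 in the reported fit, 500 without the filter, 2122 with DESeq2, 1 with only the days compared, and 0 both without days 0 and 9 and with the block, with 0 to 4349 when single libraries were left out. Where edgeR called 0 genes there, 3094 to 3597 had an unadjusted p under the threshold. From day 15 to day 18 the counts were 155, 72, 747, 0, 11 and 332 in the same order, 0 to 547 with single libraries left out, and 1596 to 1621 unadjusted where 0 were called. From day 6 to day 12 they were 2151, 1284 with only the days compared and 1430 without days 0 and 9, and 929 to 2802 with single libraries left out. From day 3 to day 6 they were 2898, and 1753 to 3617. On day 6 against the oviduct they were 5800, and 3448 to 6148. On one day, same-numbered libraries of endometrium and another tissue had mean correlations between 0.082 and 0.125, against -0.062 to -0.027 for other numbers, with single pairs down to -0.014, and blocking by number changed no call (against ovary and oviduct on day 6 and then day 12, CYP26A1 12.98, 11.14, 8.57 and 11.57, ENSSSCG00000021692 12.08, 9.49, 8.59 and 8.63). Log2 ratios of both genes on other pairs of days were not tested because counts were too few, and over days in ovary and oviduct only the fit without a filter gave values (adjusted p 0.378 to 1, edgeR).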

Other observations

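RBP4, the retinol carrier, was the retinoid gene with the widest range after CYP26A1. Its lowest mean in the endometrium was on day 9, the highest day of CYP26A1 and a day that chose that gene. Its libraries of day 9, at 20.0 to 49.5 CPM, overlapped those of day 3, at 19.4 to 79.4 CPM, when CYP26A1 was near the floor. They also overlapped day 12, with a lowest library of 20.7 CPM. Its mean level was 306 ± 242 CPM on day 0, 43.9 ± 31.5 CPM on day 3, 74.6 ± 30.0 CPM on day 6 and 32.2 ± 15.4 CPM on day 9 (SD, n = 3 each). It was then 500 ± 661 CPM on day 12 (SD, n = 3), 5916 ± 3894 CPM on day 15 (SD, n = 4) and 3984 ± 2821 CPM on day 18 (SD, n = 3). The change from day 12 to day 15 did not pass edgeR's test (log2 fold change 3.58, SE 1.20, adjusted p = 0.0711), and it was called by DESeq2 and by edgeR without library 2 of day 15.

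In the order of genes on the RefSeq annotation of assembly Sscrofa11.1, the nearest genes on either side of CYP26A1 that matched the table by symbol are EXOC6 on one side, beyond LOC100739552, and MYOF on the other. CYP26C1 was not found by symbol among the nearest genes in that order, so its place was not read from it. EXOC6, a subunit of the exocyst complex, had 5.51 ± 0.91 CPM on day 3, 15.2 ± 6.8 CPM on day 6 and 18.3 ± 3.1 CPM on day 9 in the endometrium (SD, n = 3 each). It rose from day 3 to day 6 by 1.45 on the log2 scale (SE 0.29, adjusted p = 0.00192, edgeR's quasi-likelihood test) and fell to day 12 by 0.86 (SE 0.28, adjusted p = 0.047, edgeR). MYOF, which acts in membrane repair, had 178 ± 45.1 CPM on day 3 and 63.4 ± 5.2 CPM on day 6 (SD, n = 3 each), a log2 fold change of -1.50 (SE 0.26, adjusted p = 0.000804, edgeR). The order of genes on the build of the files was not used here.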
